A study of Mus musculus with 9 samples.

Results

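The genes described here are 9 regulators of NF-κB signalling, called inhibitors here after their families although the nuclear IκB proteins among them can also activate: the IκB family genes Nfkbia, Nfkbib, Nfkbie, Nfkbid, Nfkbiz and Bcl3, and the A20 group of Tnfaip3, Tnip1 and Cyld. They were picked out of the table by gene name alone, with earlier results of these data known, and are 9 of the 15384 genes in the count table. All 9 were present and passed the filter on low counts in every comparison. RNA-seq was performed on MyC-CaP cells, a mouse prostate cancer line that comes from the tumor of a mouse carrying a MYC transgene driven by a prostate promoter. The cells were starved in medium lacking serum and calcium and then received 100 ng/mL of recombinant ASPN, asporin, a small leucine-rich proteoglycan of the extracellular matrix. RNA was taken at time 0 and after 12 and 24 h, with 3 biological replicates at each time. The labels call the time 0 libraries ASPN-treated as well, and no library of untreated cells held for 12 or 24 h entered the comparisons, so ASPN and the hours in culture cannot be told apart.

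NF-κB dimers are held in the cytoplasm by the classical IκB proteins until the IκB kinase complex marks these for ubiquitination and degradation. The freed dimers enter the nucleus and activate, among other genes, those of several of their own inhibitors. The newly made inhibitors return NF-κB to the cytoplasm, act on it at the chromatin, or remove the ubiquitin chains that carry the signal from the receptor. This loop limits how long and how strongly a cell answers inflammatory cytokines, and loss of A20 or CYLD is known to prolong NF-κB activity in epithelial cells.

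The libraries held 41881191 to 52993821 counts, with a median of 44779129, so 3 counts corresponded to at most 0.0733 CPM, counts per 1000000 scaled counts of a library. CPM values were scaled with trimmed-mean (TMM) factors, which were 0.899 to 0.914 in the 24 h libraries and 1.04 to 1.07 in the other libraries. Of the epithelial and prostate markers, Hoxb13 reached 67.6 to 104 CPM and Krt8 24.8 to 42.2 CPM, while Krt18, Epcam and Cdh1 stayed at or below 0.489 CPM in every library, although the cells are labelled epithelial-like. The markers of other cell types that were in the table summed to 9.09 to 14.1 CPM for fibroblasts, most of it Pdgfra, and to 0.270 to 0.815 CPM for leukocytes, and reached at most 0.125 CPM for endothelium. In bulk RNA, a change in the number of expressing cells and a change in RNA per cell cannot be told apart.

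The promoters are shown first, because several of these inhibitors are known NF-κB targets. RefSeq promoter windows (GRCm38.p6) run from 250 bases before to 50 bases after the transcription start, and 8 of the 9 genes had at least 1, for 11 windows in all; Nfkbiz had none. The windows were searched on both strands for the κB consensus, a motif of 10 bases. The 250 bases before the start of Nfkbia, and of the first of the 2 starts of Tnfaip3, are given 5′ to 3′ in the direction of the gene, with matches to the consensus in capitals, since IκBα and A20 are the textbook feedback inhibitors of the pathway.
Nfkbia (chr12:55492648-55492897, minus strand): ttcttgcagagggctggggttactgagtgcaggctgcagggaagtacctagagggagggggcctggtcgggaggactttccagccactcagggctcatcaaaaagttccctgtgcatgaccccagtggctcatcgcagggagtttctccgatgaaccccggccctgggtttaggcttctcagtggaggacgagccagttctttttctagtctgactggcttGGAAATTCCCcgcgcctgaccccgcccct
Tnfaip3 (chr10:19015411-19015660, minus strand): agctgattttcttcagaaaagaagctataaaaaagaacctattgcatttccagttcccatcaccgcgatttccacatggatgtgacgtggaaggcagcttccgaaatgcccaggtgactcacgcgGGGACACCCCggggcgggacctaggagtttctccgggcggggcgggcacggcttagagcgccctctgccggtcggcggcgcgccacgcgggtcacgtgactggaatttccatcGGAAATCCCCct
In Nfkbia, the gene of IκBα, the match lay at bases -29 to -20, counted from the start. In Tnfaip3, the gene of A20, matches lay at -125 to -116 and at -12 to -3 from the first start, and the second start had none. The matches of the other genes are given in 30-base windows, so that their cores can be compared.
Nfkbie (chr17:45555584-45555613, plus strand): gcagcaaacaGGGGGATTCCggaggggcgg
Bcl3 (chr7:19822734-19822763, minus strand): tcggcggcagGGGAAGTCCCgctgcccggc
Nfkbid, first match (chr7:30422170-30422199, plus strand): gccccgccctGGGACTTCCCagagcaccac
Nfkbid, second match (chr7:30422215-30422244, plus strand): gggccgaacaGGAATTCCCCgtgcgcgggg
Tnip1 (chr11:54962979-54963008, minus strand): ctccatcatgGGGGAATTCCCCtcctgcct
Cyld (chr8:88696863-88696892, plus strand): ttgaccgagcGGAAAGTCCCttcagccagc
In Tnip1 overlapping matches on both strands together formed a palindrome at -58 to -47, and the match of Nfkbie lay at -106 to -97 and that of Cyld at -155 to -146. The Bcl3 match lay after the start, at bases 3 to 12, and the matches of Nfkbid, at -226 to -217 and -181 to -172, belonged to 1 of its 3 starts. In all, 7 of the 8 genes and 7 of the 11 windows held a match, and Nfkbib had none in its window. Over all RefSeq promoters, 2779 of 32851 windows (8.46%) held one. By gene, the share was 9.55% of 27025 genes and 12.2% of the 9119 genes tested at 12 h that had a window. With the 9 inhibitors left out, it was 27.0% of the 122 genes called higher at 12 h that had a window. A match describes the letters of a window and does not show binding, and Cyld, with a match, and Nfkbib, without one, were the 2 genes that changed least at 12 h.

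**Figure D1:**
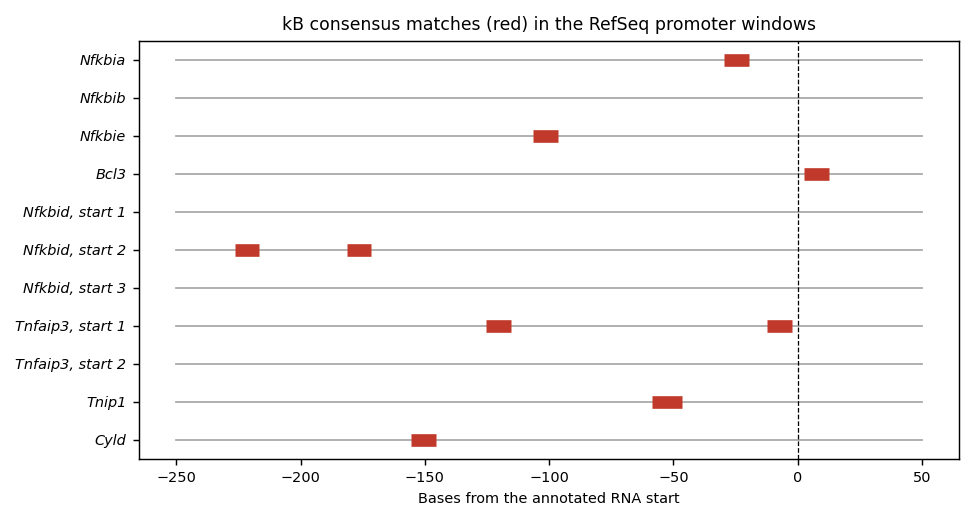
Position of κB consensus matches in the RefSeq promoter windows of 8 of the inhibitors, on an x axis of bases from the transcription start; each line is 1 window and each mark 1 match. Matches lie within 250 bases before the start in Nfkbia, Nfkbie, Tnfaip3, Tnip1, Cyld and 1 window of Nfkbid, after the start in Bcl3, and in no window of Nfkbib.

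The design allows 3 comparisons: 12 h with time 0, 24 h with time 0, and 24 h with 12 h. Each was tested with edgeR's quasi-likelihood test over all genes, and a gene was called when its Benjamini-Hochberg adjusted p was at most 0.05 and its fold change at least 1.5. At 12 h, 7 of the 9 inhibitors were called higher, against 1.5% of 11410 tested genes called higher and 0.0964% called lower, and all 9 fold changes were positive. In 8 of the 9 the 12 h libraries lay wholly above the time 0 libraries, where 27.0% of all genes had groups that did not overlap in either direction. At 24 h, 6 of the 9 were called higher than at time 0, against 12.0% of 11444 genes called higher and 16.8% called lower; groups did not overlap for 8 of the 9 and for 73.9% of all genes. From 12 to 24 h, 6 of the 9 were called lower, against 15.3% of 11394 genes called lower and 10.4% called higher, with groups apart for 7 of the 9 and for 73.9% of all genes. The median log2 fold change of the 9 was 2.14 at 12 h and 1.03 at 24 h over time 0 and -0.72 from 12 to 24 h, beside -0.0049, -0.016 and 0.0039 over all tested genes. The comparisons share libraries, so they are given side by side and are not independent of each other. Scaling by total counts alone moved the median of all genes to -0.24 at 24 h against time 0, with 698 genes then called higher and 3008 lower in place of 1374 and 1924. From 12 to 24 h it moved the median to -0.22, with 484 genes called higher and 2830 lower in place of 1184 and 1740.

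**Figure D2:**
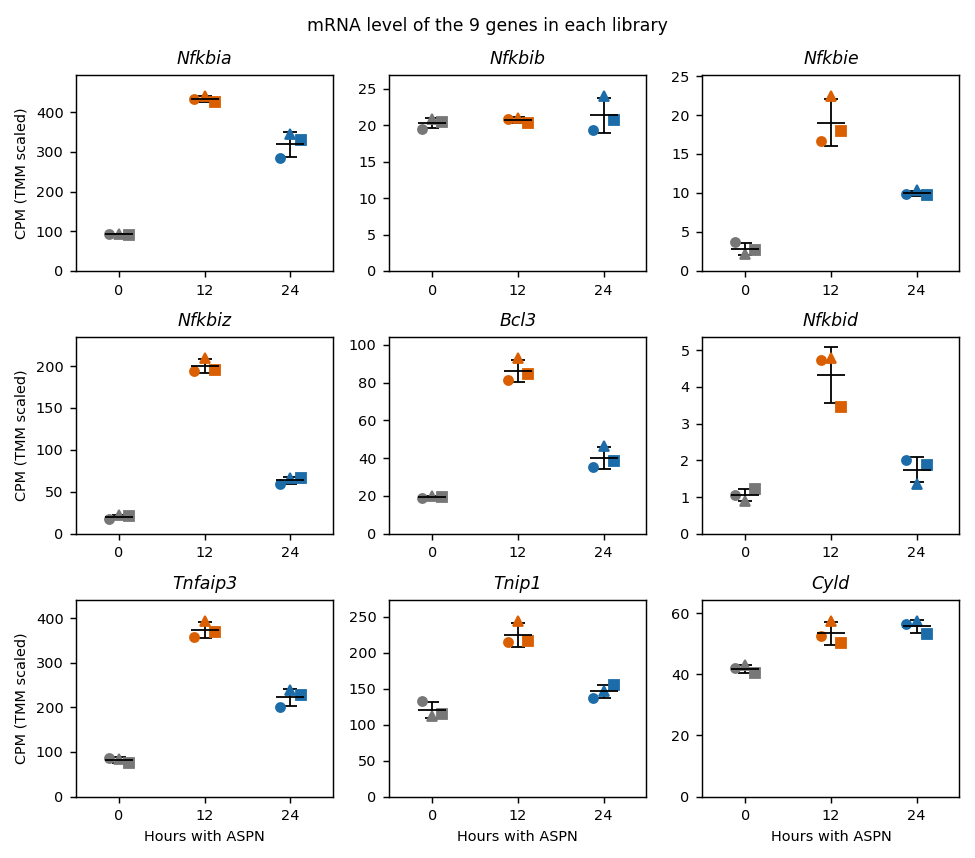
CPM of the 9 inhibitors (y axis, linear, its own scale in each panel) at 0, 12 and 24 h with ASPN (x axis); circles, triangles and squares are replicates 1, 2 and 3, and bars are the mean and SD of 3 libraries. Of the 9, only Nfkbib has 12 h libraries that overlap those of time 0, and Nfkbib and Cyld are those whose 24 h libraries overlap the 12 h libraries.

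Of the classical cytoplasmic IκB genes, Nfkbia and Nfkbie rose and Nfkbib did not pass the test. Nfkbia (ENSMUSG00000021025.8, GRCm38 chr12:55489410-55492647, minus strand) encodes IκBα, which strips NF-κB from DNA and carries it out of the nucleus. Its level was 92.7, 93.7 and 90.7 CPM in the time 0 libraries, 432, 442 and 427 CPM at 12 h, and 284, 344 and 331 CPM at 24 h. The 3 times did not overlap, with 12 h highest. Nfkbia was 4.71-fold higher at 12 h than at time 0 (95% interval 4.49 to 4.94, edgeR adjusted p = 4.3e-17), which ranked 28 of 11410 genes from the highest, and 3.47-fold higher at 24 h (3.16 to 3.81, adjusted p = 8.2e-11). The difference between 12 and 24 h was 1.34-fold (1.23 to 1.45, adjusted p = 1.5e-05), below the 1.5-fold limit for a call. It passed that limit, at a log2 value of -0.64, when libraries were scaled by total counts, and at -0.62 when the counts were corrected for transcript length and GC content.

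Nfkbie (ENSMUSG00000023947.8, chr17:45555703-45563169, plus strand) encodes IκBε, a slower inhibitor that preferentially binds dimers with RelA or c-Rel. It was at 3.70, 2.23 and 2.63 CPM at time 0, at 16.7, 22.5 and 17.9 CPM at 12 h, and at 9.87, 10.3 and 9.73 CPM at 24 h. These levels rest on 104 to 178 counts per library at time 0 and on 404 to 1045 counts later, and the times did not overlap. Its 12 h level was 6.69-fold that of time 0 (5.40 to 8.30, adjusted p = 8.0e-10), the second largest fold among the 9, and its 24 h level 3.51-fold (2.80 to 4.40, adjusted p = 1.6e-07). From 12 to 24 h Nfkbie fell 1.88-fold (1.61 to 2.19, adjusted p = 2.9e-06).

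Nfkbib (ENSMUSG00000030595.15, chr7:28758251-28767512, minus strand) encodes IκBβ, which is degraded on stimulation like IκBα but is not known for the same rapid resynthesis. Its level was 19.5, 20.9 and 20.5 CPM at time 0, 20.9, 21.03 and 20.3 CPM at 12 h, and 19.4, 24.1 and 20.7 CPM at 24 h. The 3 times overlapped, and replicate 2 at 24 h was the highest library. The 12 h level was 1.02-fold that of time 0 (0.944 to 1.11, adjusted p = 0.78) and the 24 h level 1.06-fold (0.940 to 1.19, adjusted p = 0.37), so the intervals contain neither a rise nor a fall of 1.5-fold. The 24 h against 12 h ratio was 1.05 (0.938 to 1.17, adjusted p = 0.42), and both ratios that involve 24 h turned below 1 when scaled by total counts or without replicate 2 of 24 h. Exons of Nfkbib overlap those of Ccer2 over 314 bp (14.5% of its exonic length) and of Sirt2 over 42 bp on the opposite strand, and the strand setting of the counting is not given in the sources used here.

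The mix of cytoplasmic IκB transcripts changed with these levels. Measured as CPM per kb of exon, which allows levels of different genes to be compared, Nfkbia made up 84.5 to 84.9% of the sum of Nfkbia, Nfkbib and Nfkbie at time 0, 94.1 to 94.7% at 12 h and 93.5 to 94.2% at 24 h. The Nfkbib share was 13.3 to 14.2%, then 3.33 to 3.40%, then 4.37 to 4.87%, while its own level stayed within the spread of the libraries. The Nfkbie share was 1.07 to 1.79%, 1.93 to 2.54% and 1.46 to 1.72%, with 24 h overlapping time 0 (exact permutation p = 0.5). The sum of the 3 genes went from 67.7 ± 0.947 (SD, n = 3) to 285 ± 5.77 and 212 ± 20.6 CPM per kb. Nfkbia was 1.91 to 1.97 times as abundant per kb as Rela, the gene of the p65 subunit that IκBα binds, at time 0, 6.77 to 7.46 times at 12 h and 5.43 to 5.63 times at 24 h. For each of these measures other than the Nfkbie share, 12 h and 24 h lay apart from time 0, and the exact two-sided permutation p was 0.1, the smallest that 3 against 3 libraries can give; the 12 h and 24 h shares of Nfkbia overlapped (exact p = 0.2). The shares and ratios were chosen after the levels were known.

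**Figure D3:**
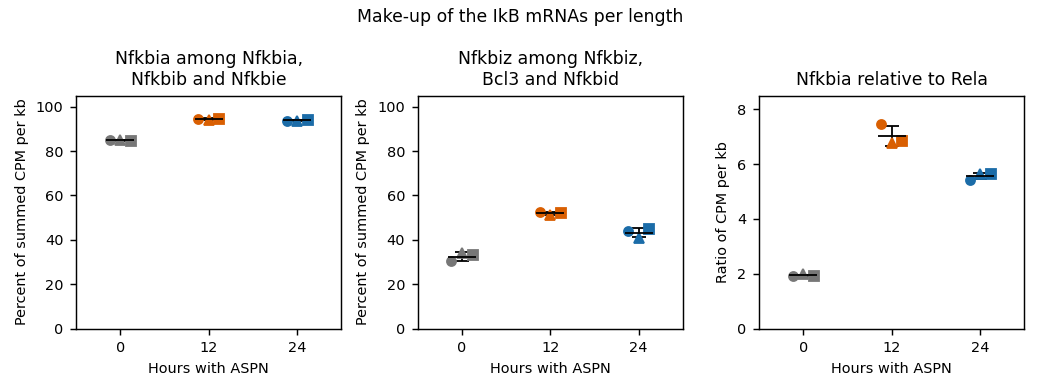
Composition of the inhibitor transcripts, from CPM per kb of exon: percent of the cytoplasmic IκB sum that is Nfkbia, percent of the nuclear IκB sum that is Nfkbiz, and the Nfkbia to Rela ratio (y axes, linear from 0) at each time (x axis), with circles, triangles and squares for replicates 1, 2 and 3 and bars for mean and SD. Time 0 lies below 12 h and 24 h in every panel, and the 12 h and 24 h libraries overlap in the Nfkbia share.

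The 3 genes of nuclear IκB proteins, which bind NF-κB subunits at promoters and can activate as well as repress them, were all called higher at 12 h and all called lower from 12 to 24 h. Nfkbiz (ENSMUSG00000035356.17, chr16:55811375-55838899, minus strand) encodes IκBζ, a coactivator of secondary inflammatory response genes. It measured 17.9, 22.1 and 20.99 CPM at time 0, 194, 209 and 195 CPM at 12 h, and 59.2, 66.6 and 66.2 CPM at 24 h, with no overlap between times. Its 9.84-fold rise at 12 h (9.06 to 10.7, adjusted p = 1.9e-16) was the largest of the 9 inhibitors and ranked 12 of 11410 genes. At 24 h it was 3.16-fold above time 0 (2.82 to 3.54, adjusted p = 7.4e-10), having fallen 3.07-fold from 12 h (2.85 to 3.30, adjusted p = 4.3e-11).

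Bcl3 (ENSMUSG00000053175.17, chr7:19808462-19822770, minus strand) encodes a partner of p50 and p52 homodimers. Its level was 19.1, 20.2 and 19.7 CPM at time 0, 81.2, 92.9 and 84.7 CPM at 12 h, and 35.2, 46.3 and 38.3 CPM at 24 h. All 24 h libraries lay between those of the other times. Bcl3 was 4.40-fold higher at 12 h (4.08 to 4.73, adjusted p = 1.2e-14) and 2.04-fold higher at 24 h than at time 0 (1.79 to 2.32, adjusted p = 1.8e-07), with a 2.12-fold fall from 12 to 24 h (1.88 to 2.40, adjusted p = 5.9e-08). An antisense gene, Gm16175, overlaps its exons over 106 bp.

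Nfkbid (ENSMUSG00000036931.15, chr7:30421732-30428746, plus strand) encodes IκBNS, known from lymphocytes and macrophages, and had the lowest level of the 9. It was at 1.06, 0.879 and 1.21 CPM at time 0 (51, 41 and 66 counts), 4.75, 4.78 and 3.45 CPM at 12 h (217, 222 and 151 counts), and 2.00, 1.37 and 1.88 CPM at 24 h (82, 66 and 89 counts). The 24 h libraries lay above time 0, though by little for replicate 2. The rise was 4.11-fold at 12 h (3.16 to 5.33, adjusted p = 4.1e-07) and 1.66-fold at 24 h (1.17 to 2.34, adjusted p = 0.012), and the fall from 12 to 24 h 2.45-fold (1.86 to 3.22, adjusted p = 2.7e-05). The call at 24 h against time 0 was lost under scaling by total counts (log2 fold change 0.51, adjusted p = 0.063).

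The order of Nfkbiz and Bcl3 per kb of exon turned over at 12 h and back at 24 h. Nfkbiz was 30.3 to 34.0% of the sum of Nfkbiz, Bcl3 and Nfkbid at time 0, 51.3 to 52.6% at 12 h and 40.8 to 44.8% at 24 h, and Bcl3 was 62.9 to 65.8%, 44.6 to 46.2% and 52.5 to 57.5%. None of the 3 times overlapped in either share (exact permutation p = 0.1 for each pair of times, the smallest possible). The Nfkbid share was 2.90 to 4.08%, 1.97 to 2.75% and 1.79 to 3.18%, and its 24 h libraries overlapped time 0 (exact permutation p = 0.2) and 12 h (p = 0.8). The summed level was 12.4 ± 0.631 (SD, n = 3), 76.4 ± 4.19 and 29.6 ± 2.85 CPM per kb.

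Of the genes that act on ubiquitin chains, Tnfaip3 and Tnip1 were called at 12 h and Cyld was not. Tnfaip3 (ENSMUSG00000019850.11, chr10:19000910-19015657, minus strand) encodes A20, an enzyme and ubiquitin-binding protein that ends signalling from TNF and Toll-like receptors. Its level was 85.4, 85.2 and 74.5 CPM at time 0, 358, 393 and 368 CPM at 12 h, and 201, 239 and 227 CPM at 24 h. The times did not overlap, and the 24 h libraries lay between those of the other times. Tnfaip3 was 4.58-fold higher at 12 h (4.26 to 4.93, adjusted p = 9.2e-15) and 2.73-fold higher at 24 h (2.47 to 3.02, adjusted p = 8.4e-10), and fell 1.65-fold between these times (1.52 to 1.79, adjusted p = 6.9e-08).

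Tnip1 (ENSMUSG00000020400.17, chr11:54910785-54962917, minus strand) encodes ABIN1, which binds A20 and linear ubiquitin. It stood at 132, 112 and 115 CPM at time 0, 215, 244 and 216 CPM at 12 h, and 137, 147 and 155 CPM at 24 h. The lowest 24 h library was close to the highest at time 0, at 136.5 and 132.4 CPM. Tnip1 was 1.88-fold higher at 12 h (1.73 to 2.05, adjusted p = 7.9e-09), and at 24 h its 1.23-fold difference from time 0 (1.11 to 1.35, adjusted p = 0.0010) was below the fold limit. Scaled by total counts, the 24 h difference from time 0 was 0.072 on the log2 scale (edgeR adjusted p = 0.28). The fall of Tnip1 from 12 to 24 h was 1.52-fold (1.40 to 1.64, adjusted p = 3.6e-07), just past the fold limit. That call was lost without replicate 2 of 12 h (log2 value -0.54), without replicate 1 of 24 h (-0.56), with upper-quartile scaling (-0.58) and with the length and GC correction (-0.49).

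Cyld (ENSMUSG00000036712.15, chr8:88697028-88751945, plus strand) encodes a deubiquitinase that removes lysine-63-linked and linear chains, and is a tumor suppressor of skin appendages. Its level was 42.1, 43.0 and 40.4 CPM at time 0, 52.5, 57.4 and 50.3 CPM at 12 h, and 56.6, 57.4 and 53.3 CPM at 24 h. Both later times lay above time 0 and overlapped each other. The ratios to time 0 were 1.28 (1.19 to 1.37, adjusted p = 5.9e-05) at 12 h and 1.34 (1.24 to 1.44, adjusted p = 5.2e-06) at 24 h, under the fold limit although past the limit on p. Between 12 and 24 h the ratio was 1.06 (0.979 to 1.15, adjusted p = 0.17), and it turned below 1 under scaling by total counts. Tnfaip3 was 3.21 to 3.53 times as abundant per kb as Cyld at time 0, 11.9 to 12.7 times at 12 h and 6.20 to 7.41 times at 24 h (exact permutation p = 0.1 for each step, the smallest possible).

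**Figure D4:**
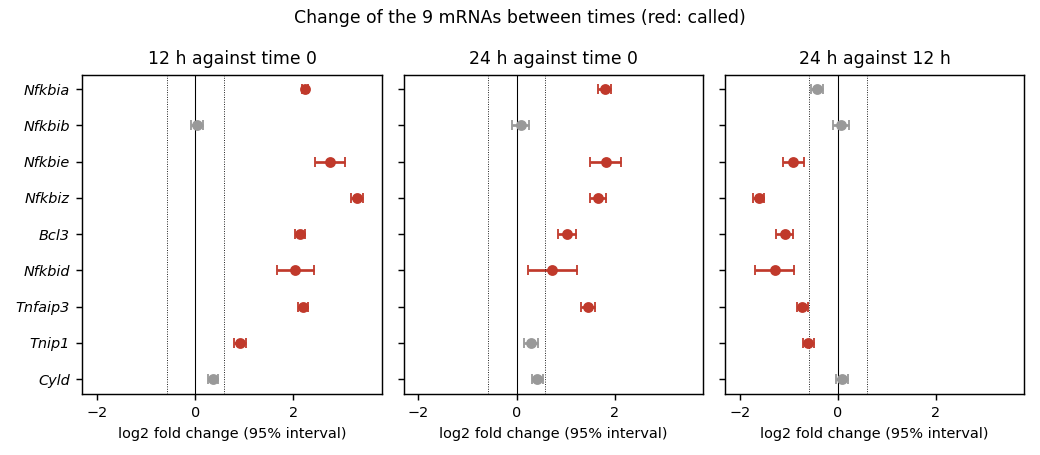
log2 fold change (x axis) of each inhibitor (y axis) in the 3 comparisons (panels), red where called, with bars for the 95% interval from edgeR and dotted lines at 1.5-fold. At 12 h the values run from 0.03 for Nfkbib to 3.30 for Nfkbiz, and from 12 to 24 h from -1.62 for Nfkbiz to 0.09 for Cyld.

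Per kb of exon the order of levels at time 0 was Nfkbia (57.4 ± 0.926 CPM per kb, SD, n = 3), Tnip1 (33.8), Tnfaip3 (11.3), Nfkbib (9.36), Bcl3 (7.95), Nfkbiz (4.05), Cyld (3.33), Nfkbie (0.936) and Nfkbid (0.448). At 12 h Nfkbiz stood in the fourth place with 39.8 ± 1.67 CPM per kb, behind Nfkbia (269 ± 4.74), Tnip1 (63.5 ± 4.66) and Tnfaip3 (51.6 ± 2.51), and Nfkbib was now below Bcl3 (34.8 ± 2.43). At 24 h Bcl3 (16.1 ± 2.32) was again above Nfkbiz (12.8 ± 0.825). At each time the library ranges of neighbours in the order did not overlap. Exonic length here is the union of all annotated exons, 1610 bp for Nfkbia to 12576 bp for Cyld, so a gene whose transcripts use few of its exons is understated.

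Among the libraries of 1 time, replicate 2 had the highest level of all 9 inhibitors at 12 h and of 7 of the 9 at 24 h, where replicate 1 was the lowest for 6 of the 9. At time 0 replicate 2 was the highest for 5 of the 9, and each replicate was the lowest for 3. The same order was not counted over all genes. Leaving each library out in turn ended the call of Tnip1 between 12 and 24 h and no other call of an inhibitor.

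The other genes of the pathway were read from lists drawn up with earlier results of the same data known. Where a count of genes at an unadjusted p under 0.05 is given, the share over all tested genes was 21.4% at 12 h against time 0, 72.8% at 24 h against time 0 and 73.3% at 24 h against 12 h. Of the subunits of NF-κB that the inhibitors hold back, 3 of 5 were called higher at 12 h and the same 3 at 24 h, with medians of 1.02 and 1.16 (log2), and none was called between 12 and 24 h by edgeR, DESeq2 or limma-voom, although 2 of 5 had an unadjusted p under 0.05. Relb, the partner of p52 in the noncanonical pathway, went from 7.94 to 43.1 and 43.2 CPM, with log2 fold changes of 2.45 and 2.45 (adjusted p = 6.9e-13 and 3.8e-10). The difference between its 12 and 24 h levels was 0.03 (95% interval -0.15 to 0.20), and that of Nfkb2, the gene of p100 and p52, was 0.02 (-0.11 to 0.15). Nfkb2 was 1.21 higher at both times and Rel 1.02 and 1.16 higher, on the log2 scale. Nfkb1 (0.57 and 0.29) and Rela (0.38 and 0.27) were below the fold limit at both times, and Nfkb1 differed by -0.27 from 12 to 24 h (adjusted p = 0.0064), also below it.

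The kinase and ligase that act on IκB, 8 genes from Chuk and Ikbkb to Btrc and Cul1, had no call in any comparison by edgeR, DESeq2 or limma-voom. At 12 h none of the 8 had an unadjusted p under 0.05, the median log2 fold change was -0.01, and each gene's groups overlapped. At 24 h 6 of the 8 had an unadjusted p under 0.05 against time 0, near the share of all genes, with a median of -0.22. The furthest was Skp1a, a ligase subunit, at -0.56 (95% interval -0.66 to -0.46, adjusted p = 1.1e-07), just short of the 1.5-fold limit. Scaled by total counts, Skp1a and Fbxw11 were called lower at 24 h against both earlier times.

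Of the partners of A20, 4 of the 5 listed were tested, since Tnip3 was not among the genes of the table. None was called at any time by the same tools, with 1, 4 and 3 of the 4 at an unadjusted p under 0.05 in the comparisons of 12 h with time 0, 24 h with time 0 and 24 h with 12 h. The shares of all tested genes called are those given for the kinase and ligase, and at 12 h no call among 4 genes lies near them. Itch, the E3 ligase that works with A20, was at 67.9, 67.4 and 97.3 CPM at 0, 12 and 24 h, a log2 difference of 0.52 at 24 h. Among 8 ligases and substrates on which A20 or CYLD act, Traf2 was called higher at 24 h against time 0 (0.83, adjusted p = 5.1e-08) after 0.56 at 12 h. This 1 call among 8 genes lies near the 12.0% of all tested genes called higher in that comparison. The other 7 were not called in any comparison.

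Among 7 other brakes on the pathway, none was called at 12 h by the same tools, with 3 at an unadjusted p under 0.05. At 24 h against time 0, 1 was called higher and 2 lower, beside 12.0% and 16.8% of all tested genes. Spata2, the adaptor that brings CYLD to the receptor complex, measured 18.2, 26.4 and 10.4 CPM at 0, 12 and 24 h. Its log2 fold change was 0.55 at 12 h, below the limit, -0.80 at 24 h (adjusted p = 8.7e-06) and -1.33 from 12 to 24 h (adjusted p = 3.4e-08), while the means of Cyld were at most 1.34-fold apart. The Ras-like IκB-binding genes differed from each other, Nkiras1 being at -0.75 (adjusted p = 0.0030) and Nkiras2 at 0.65 (adjusted p = 9.5e-08) at 24 h against time 0. Nkiras1 was low, at 2.51 CPM at time 0 and 1.49 CPM at 24 h, where Nkiras2 was at 45.8 and 71.9 CPM. Under scaling by total counts Nkiras2 was no longer called and Otulin, a linear-chain deubiquitinase, was called lower.

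**Figure D5:**
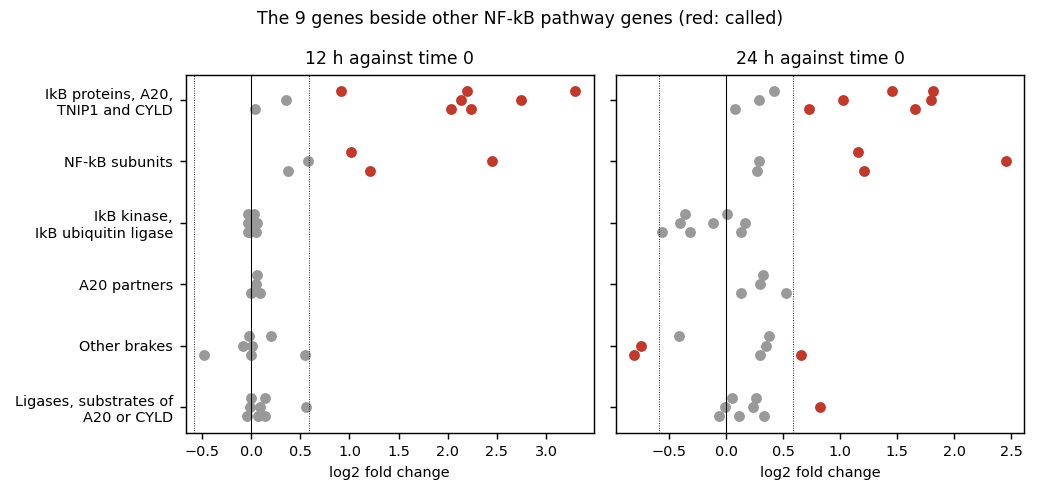
log2 fold change of the inhibitors and of the genes of each pathway list (rows; points are genes) at 12 h and at 24 h against time 0 (panels; x axis, log2), red where called, with dotted lines at 1.5-fold. The kinase and ligase genes lie between the dotted lines in both panels, and the subunits and inhibitors reach past the upper line at 12 h.

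The genes whose course over the 3 times was most like each called inhibitor were found among 9265 genes, the 9 inhibitors left out, by the distance between mean log2 levels, each gene centred on its own mean. For Tnfaip3 the nearest was Elf3, an epithelial ETS transcription factor, at a distance of 0.10, with 13.2, 56.3 and 33.1 CPM at 0, 12 and 24 h. For Nfkbia they were Map3k8 (0.15), the kinase Tpl2, and the cytokine gene Lif (0.22). For Bcl3 they were Elf3 (0.27), Csf1 (0.28) and Edn1 (0.32), and Nfkbid had the same genes at 0.43 to 0.47. For Nfkbie they were Csf1 (0.34) and Zc3h12a (0.37), the gene of the RNase regnase-1, and of genes outside the 9 these were also nearest to Nfkbiz, at 0.58 and 0.64. For Tnip1, which came closest to its starting level, they were Apol10b (0.04), Bid (0.07) and S1pr2 (0.08). Elf3 and Csf1 were each among the 3 nearest genes of 5 of the 7 called inhibitors. Among the inhibitors themselves the closest pairs were Nfkbid with Bcl3 (0.22), Nfkbia with Tnfaip3 (0.26) and Nfkbib with Cyld (0.27). The distances rest on 3 time points and describe likeness of course only.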

How the data were processed

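The authors deposited raw counts per gene, 1 table for the series. Per the labels and methods, 150 bp paired-end mRNA libraries were trimmed with cutadapt, aligned with STAR to GRCm38.p6 and counted with featureCounts; the strand setting is not given in the sources used here. Gene lengths and overlaps came from GENCODE M21, in which 15374 of 15384 genes were found. Each comparison was fitted on its 6 libraries with edgeR 4.0.16 (limma 3.58.1, R 4.3.3): filterByExpr, TMM factors, quasi-likelihood F test, Benjamini-Hochberg adjustment over all tested genes, a call at an adjusted p of at most 0.05 and a fold change of at least 1.5. CPM values were TMM-scaled over all 9 libraries. Counting error alone is small at 41881191 to 52993821 counts per library; counts of reads without molecular identifiers are not independent molecules. The spread between same-time libraries exceeded counting noise, with chi-square values of 3.48 to 18.2 per degree of freedom, so all were kept as separate replicates. DESeq2 1.42.0, limma-voom, other scalings and filters, a replicate block, length and GC offsets and leaving out each library were alternatives. All 9 inhibitors are named; the other genes named come from 5 pathway lists, the 3 nearest genes by distance (mean of at least 5 CPM), cell type marker lists or exons that overlap those of an inhibitor. A further list, of NF-κB output genes, is not reported, since some of its genes passed the filter only through the group where they are high. The genes and lists were chosen with earlier results of these data known. The main edgeR fit and the distance between courses were tested on simulated data, and the other steps were not. Some markers of the cell type are not reported here.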

Additional observations from a re-analysis of the deposited data

Results flagged for a closer look

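From 12 to 24 h, 6 inhibitors moved against their rise from time 0 to 12 h, and a test of each step was past the threshold. The log2 fold changes of this second step were -1.62 for Nfkbiz, -1.29 for Nfkbid, -1.09 for Bcl3, -0.91 for Nfkbie, -0.72 for Tnfaip3 and -0.60 for Tnip1. The 12 h libraries take part in both steps, so a high value at 12 h enters the rise and the fall alike; that part was not tested. Groups of 3 libraries were not searched for single outlying libraries.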

How the results depend on the processing

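Of 486 values of single inhibitors under the alternatives, 468 kept their direction and their side of the threshold, 7 passed it where the reported value did not, 6 no longer passed it and 5 turned. Those that turned were the Nfkbib log2 fold change at 24 h against time 0 (-0.14 with total counts, and -0.012 to 0.15 when each library was left out, negative without replicate 2 of 24 h) and at 24 h against 12 h (-0.15 with total counts, and -0.026 to 0.13, negative without the same library), and that of Cyld at 24 h against 12 h (-0.14 with total counts, adjusted p = 0.037). The adjusted p alone, without a fold limit, called 1178, 8119 and 8124 genes in the comparisons of 12 h with time 0, 24 h with time 0 and 24 h with 12 h, in place of 182, 3298 and 2924, and 8, 8 and 7 inhibitors in place of 7, 6 and 6. Leaving out each library in turn gave 148 to 198, 3248 to 3312 and 2871 to 3003 genes, and 7, 6 and 5 to 6 inhibitors; 5 was reached without replicate 2 of 12 h and without replicate 1 of 24 h, through Tnip1. With the replicate number as a block (replicate block), 7, 6 and 6 inhibitors were called. Same-numbered libraries did not deviate together (correlations -0.098 to 0.056), so the numbers were not taken as pairs. Depth limits Nfkbid most, which had 41 to 222 counts per library and the widest intervals.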
